A study of Mus musculus with 10 samples.

Results

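Nr4a1, Nr4a2 and Nr4a3 encode the 3 members of the NR4A family of orphan nuclear receptors, and their expression was followed across arrays of mouse cortical neurons that had or lacked the stress-response transcription factor ATF4. The genes were taken by symbol, with every probe set of the platform annotation that carried 1 of these symbols and no other. That gave 1 probe set for each gene, and so 3 of the 22180 genes tested and 3 of the 41345 probe sets on the array. The study plated dissociated neurons from embryonic mouse cortex (embryonic day 14.5 to 15.5) and, after 7 days in culture, gave them 5 µM sodium arsenite, an oxidative and proteotoxic poison, or vehicle for 12 h. There were 4 groups, all of the same tissue, age and culture time. KO-ARS holds 2 arrays of ATF4-deficient neurons with arsenite, KO-Ctrl 2 arrays of ATF4-deficient neurons with vehicle, WT-ARS 4 arrays of wild-type neurons with arsenite, and WT-Ctrl 2 arrays of wild-type neurons with vehicle. The labels call the arrays biological replicates without saying whether they came from separate embryos, litters or platings, and a p-value here speaks of the spread among these arrays only. The allele by which ATF4 was lost, the strain and the sex are not given in the sources used here.

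NR4A receptors bind DNA without a known physiological hormone, and their activity is set largely by how much of each protein is made. Their genes are classical primary response genes: in neurons, calcium entry and cyclic AMP activate the factor CREB, which binds cyclic AMP response elements (CRE) at Nr4a promoters, and transcripts rise and decay quickly. The proteins bind the NBRE, an extended nuclear receptor site, as monomers, and Nr4a1 (Nur77) and Nr4a2 (Nurr1) can also pair with retinoid X receptors. Nr4a2 is known for the development and upkeep of midbrain dopamine neurons, Nr4a1 for roles in T cells, steroid-producing cells and synapse distribution, and Nr4a3 (Nor1) for roles that partly replace those of Nr4a1.

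The upstream sequences of the 3 genes are shown because CRE matches are a feature they share that did not enter their choice. Each is the 250 bases before the RefSeq start site in build GRCm38.p6, 5′ to 3′ on the gene's strand, with each CRE core TGACG, read on either strand (CGTCA when on the other), in capitals. Nr4a1 lies on the plus strand at chr15:101266596-101266845, Nr4a2 on the minus strand at chr2:57124004-57124253, and Nr4a3 on the plus strand at chr4:48045055-48045304.
Nr4a1: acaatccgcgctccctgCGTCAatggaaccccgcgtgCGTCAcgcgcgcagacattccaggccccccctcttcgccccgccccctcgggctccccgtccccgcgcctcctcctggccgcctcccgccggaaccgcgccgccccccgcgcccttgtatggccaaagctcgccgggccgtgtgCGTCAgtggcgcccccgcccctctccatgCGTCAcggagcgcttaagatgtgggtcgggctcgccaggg
Nr4a2: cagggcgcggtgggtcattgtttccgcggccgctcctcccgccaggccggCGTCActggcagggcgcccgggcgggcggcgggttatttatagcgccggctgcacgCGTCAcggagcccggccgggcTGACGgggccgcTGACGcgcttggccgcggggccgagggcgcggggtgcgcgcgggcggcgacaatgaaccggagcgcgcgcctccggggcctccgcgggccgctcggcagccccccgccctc
Nr4a3: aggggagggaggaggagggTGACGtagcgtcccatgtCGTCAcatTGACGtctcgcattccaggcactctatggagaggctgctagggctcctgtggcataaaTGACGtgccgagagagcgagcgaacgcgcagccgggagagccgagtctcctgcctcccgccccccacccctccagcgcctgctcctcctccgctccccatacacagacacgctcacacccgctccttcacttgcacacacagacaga

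Each of the 3 windows held 4 CRE cores. Of 32851 windows of the same length in the RefSeq promoter table, 17.8% held at least 1 and 45, or 0.137%, held 4 or more. The 3 windows are rich in G and C, with 74.4% in Nr4a1, 80.0% in Nr4a2 and 63.6% in Nr4a3, against a median of 52.4% over all windows. Among the 6582 windows with at least the GC content of the Nr4a3 window, 25, or 0.380%, held 4 or more cores. The cores of Nr4a1 were all on the opposite strand, while Nr4a2 and Nr4a3 carried cores on both strands. The full palindromic CRE, TGACGTCA, was found in 1.55% of all windows, the NBRE, AAAGGTCA, in 1.34%, and the ATF4 composite element, TGATGNAA, in 3.45%, on either strand. These letters did not occur in the 3 Nr4a windows. A palindromic CRE contains a core on each strand, so those 2 searches overlap. The windows of Nr4a1 and, in part, Nr4a3 lie inside the annotated gene span. The matches describe letters in these windows only.

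**Figure D1:**
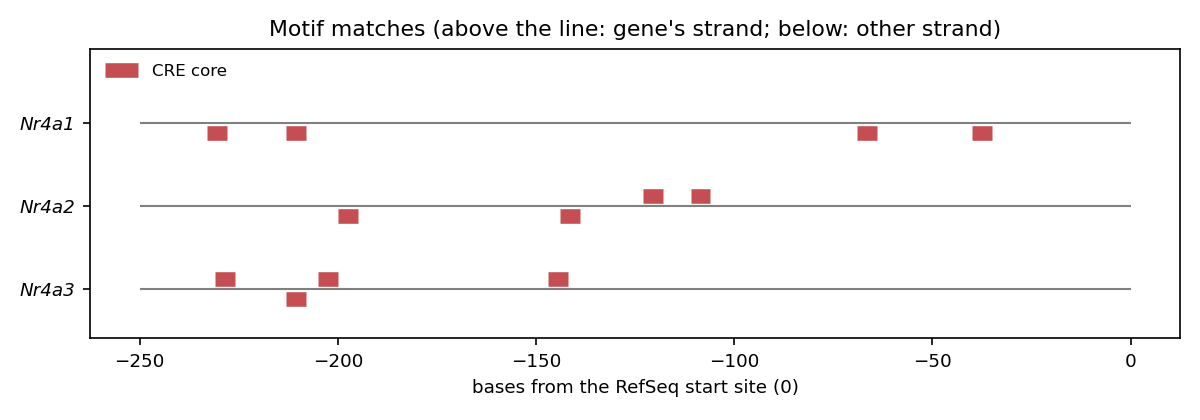
Motif matches in the 250 bases before the RefSeq start site of each gene; the horizontal axis is the distance in bases from the start site at 0, and blocks above or below each line lie on the gene's strand or on the other strand. Each gene has 4 CRE cores, and the 4 of Nr4a1 all lie below the line.

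The arrays were checked before the members were read. Array medians ran from 7.00 to 7.09 in log2 units, and the correlations between arrays from 0.982 to 0.994. On the first principal component over all genes KO-ARS replicate 2 scored 29.4, against -18.2 to 8.70 on the other 9 arrays. The Nr4a group differences that use KO-ARS are also given without it, as are several list medians. Atf4 was at 7.54 and 7.70 in KO-ARS, 7.65 and 7.48 in KO-Ctrl, 9.43 to 9.91 in WT-ARS, and 9.09 and 9.56 in WT-Ctrl, so the 4 ATF4-deficient arrays lay below the 6 wild-type arrays. The 9 neuron markers averaged 11.04 in KO-ARS, 11.06 in KO-Ctrl, 11.06 in WT-ARS and 11.15 in WT-Ctrl, and none had a group mean under 6.64, the 90th percentile of 1390 olfactory and vomeronasal receptor genes, used here as a reference for dim probe sets. All 3 Nr4a genes were above that reference in every group.

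In ATF4-deficient neurons all 3 Nr4a genes fell with arsenite. Values are log2 expression as deposited. Nr4a1 was at 7.75 and 7.58 in KO-ARS, against 8.94 and 9.06 in KO-Ctrl. Nr4a2 was at 8.75 and 8.72 in KO-ARS, against 10.04 and 10.19 in KO-Ctrl. Nr4a3 was at 8.98 and 9.03 in KO-ARS, against 10.74 and 11.53 in KO-Ctrl. For each gene both KO-ARS arrays lay below both KO-Ctrl arrays, a separation that 20.7% of all genes showed in the same direction. Nr4a1 fell by 1.34 (SE 0.13), or 2.52-fold, with adjusted p = 0.00176 by limma, Benjamini-Hochberg adjusted over all 22180 genes. Nr4a2 fell by 1.38 (SE 0.14), or 2.61-fold, with adjusted p = 0.00198. Nr4a3 fell by 2.13 (SE 0.24), or 4.36-fold, with adjusted p = 0.00289, and its estimate was the largest fall of all genes in this comparison, with Nr4a2 7th and Nr4a1 9th. The percentage of the vehicle level left under arsenite was 39.6% for Nr4a1, 38.4% for Nr4a2 and 22.9% for Nr4a3. All 3 members passed the threshold of 0.05, where 0.523% of all genes were called lower and 1.15% in either direction. Without KO-ARS replicate 2 the differences were -1.25, -1.37 and -2.15 in the order Nr4a1, Nr4a2 and Nr4a3, with adjusted p of 0.0270, 0.0310 and 0.0315. The 3 calls held in each of 10 fits that left out 1 array, but fitted on the 4 arrays of that genotype alone, the adjusted p was 0.210, 0.210 and 0.217. In such bulk cultures, fewer cells that express a gene and less RNA per cell cannot be told apart.

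In wild-type neurons the estimates were lower with arsenite too, but none passed the threshold. Nr4a1 was at 7.62, 7.61, 7.36 and 7.62 in WT-ARS, against 8.03 and 7.77 in WT-Ctrl. Nr4a2 was at 8.81, 8.68, 8.47 and 8.46 in WT-ARS, against 9.37 and 9.06 in WT-Ctrl. Nr4a3 was at 9.16, 8.92, 8.67 and 9.28 in WT-ARS, against 9.99 and 10.13 in WT-Ctrl. Every WT-ARS array lay below both WT-Ctrl arrays for each gene, as in 12.7% of all genes. The differences were -0.34 for Nr4a1 (SE 0.11, adjusted p = 0.257), -0.61 for Nr4a2 (SE 0.12, adjusted p = 0.0646) and -1.06 for Nr4a3 (SE 0.20, adjusted p = 0.0554), by limma. The unadjusted p was 0.0106, 0.000437 and 0.0003, and 2426 genes had an unadjusted p under 0.05. The WT-ARS mean was 78.9% of the WT-Ctrl mean for Nr4a1, 65.5% for Nr4a2 and 48.1% for Nr4a3. None of the 3 was called, against 0.482% of all genes. Nr4a2 and Nr4a3 passed when dim genes were left out of the test (adjusted p = 0.0408 and 0.0349) and with array weights (adjusted p = 0.0471 and 0.0390). By limma they missed the threshold with every probe set tested (adjusted p = 0.172 and 0.165). Fitted on WT-ARS and WT-Ctrl alone, they missed it too (adjusted p = 0.136 and 0.0631). Astrocyte markers moved in the same comparison: all 11 estimates were below 0, with a median of -0.42 and 0 called. The summed linear signal was 7291 to 9936 in WT-ARS and 10296 to 11132 in WT-Ctrl. Fabp7, the brightest of the 11 (12.21 in WT-ARS, 12.49 in WT-Ctrl), weighs most in that sum. Among 7 oligodendrocyte-lineage markers 6 estimates were below 0, and Pdgfra was called lower (-0.76, adjusted p = 0.0464), though in none of the 10 fits that left out 1 array. The part of these cells in the Nr4a estimates was not tested.

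**Figure D2:**
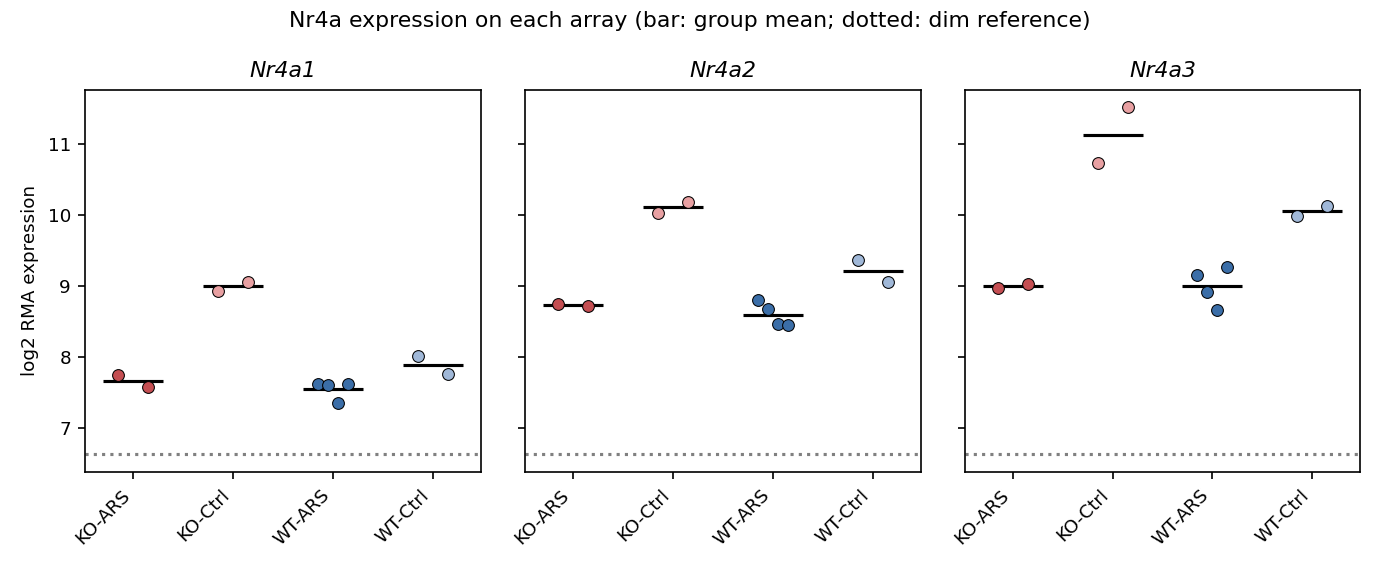
Log2 expression of Nr4a1, Nr4a2 and Nr4a3 on each of the 10 arrays by group; points are arrays, horizontal bars group means, and the dotted line the dim reference of 6.64. For each gene the 2 KO-Ctrl arrays lie above the other 8, and the KO-ARS arrays lie near the WT-ARS arrays.

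The difference between the arsenite responses of the 2 genotypes was tested directly. The response in ATF4-deficient neurons minus that in wild-type neurons was -0.99 for Nr4a1 (SE 0.17), -0.77 for Nr4a2 (SE 0.19) and -1.07 for Nr4a3 (SE 0.31). By limma the unadjusted p was 0.000113, 0.00181 and 0.00557, and the adjusted p 0.340, 0.701 and 0.744. No gene on the array passed this test (0% called), while 1330 genes had an unadjusted p under 0.05, and Nr4a1 had the 4th smallest p of all. Without KO-ARS replicate 2 the estimates were -0.91, -0.76 and -1.09, each with an adjusted p of 0.860. The response is therefore not shown to differ between genotypes for any of the 3. This test and the genotype comparison under vehicle share the KO-Ctrl and WT-Ctrl arrays.

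Under vehicle, Nr4a1 and Nr4a2 were higher in ATF4-deficient neurons than in wild-type neurons. Nr4a1 averaged 9.0 ± 0.09 in KO-Ctrl and 7.90 ± 0.18 in WT-Ctrl (SD, n = 2 each), a difference of 1.10 (SE 0.13), or 2.15-fold, with adjusted p = 0.0110 by limma. Nr4a2 averaged 10.12 ± 0.11 in KO-Ctrl and 9.21 ± 0.22 in WT-Ctrl (SD, n = 2 each), a difference of 0.90 (SE 0.14), or 1.87-fold, with adjusted p = 0.0284 by limma. Nr4a3 averaged 11.13 ± 0.56 in KO-Ctrl and 10.06 ± 0.10 in WT-Ctrl (SD, n = 2 each). Its difference of 1.07 (SE 0.24), or 2.10-fold, missed the threshold, with adjusted p = 0.0826 by limma. The KO-Ctrl arrays in this comparison are the same ones that KO-ARS was set against. The KO-Ctrl arrays lay above the WT-Ctrl arrays for all 3 genes, as in 21.2% of all genes. They also lay above all 8 other arrays for all 3, as in 3.96% of genes, by 0.91 for Nr4a1, 0.67 for Nr4a2 and 0.61 for Nr4a3 between the lower KO-Ctrl array and the highest of the others. Of the 3 members, 2 were called, where 0.180% of all genes were called higher and 0.433% in either direction.

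The calls under vehicle rest on single arrays. That of Nr4a1 was lost without WT-Ctrl replicate 2 (adjusted p = 0.113) or KO-Ctrl replicate 2 (0.170). That of Nr4a2 was lost without WT-Ctrl replicate 1 (0.0615) or 2 (0.252), or KO-Ctrl replicate 1 (0.0647) or 2 (0.289). Nr4a3 passed without KO-Ctrl replicate 1, at 1.46 and an adjusted p of 0.0424, and was at 0.68 (0.494) without KO-Ctrl replicate 2. Astrocyte markers moved with genotype in these groups. The 11 astrocyte markers averaged 7.99 ± 0.30 in KO-Ctrl and 8.91 ± 0.14 in WT-Ctrl (SD, n = 2 each). Their summed linear signal was 4561 to 6685 in KO-Ctrl and 10296 to 11132 in WT-Ctrl. Fabp7, the brightest of the 11 (11.58 in KO-Ctrl, 12.49 in WT-Ctrl), weighs most in that sum. One of the 11, Gfap, an intermediate filament of astrocytes, was called lower (-0.69, adjusted p = 0.0473 by limma), the median difference was -0.84, and 1 of the 11 had a mean under the dim reference in each of the 4 groups. The Gfap call held in 2 of 10 fits that left out 1 array. The 7 oligodendrocyte-lineage markers averaged 7.39 ± 0.04 in KO-Ctrl and 7.81 ± 0.14 in WT-Ctrl (SD, n = 2 each), without overlap of arrays and with 0 called. Progenitor and cycling-cell markers averaged 7.40 in KO-Ctrl and 7.63 in WT-Ctrl, with 6 of 7 estimates below 0 and 1 above. Inhibitory-neuron markers averaged 9.15 and 9.43 in the same groups, with 5 of 7 estimates below 0, 2 above and a median of -0.32. Neither list had a call or an overlap of arrays. Among 9 endothelial, mural and fibroblast markers Rgs5, a pericyte gene, was called higher in KO-Ctrl than in WT-Ctrl (1.29, adjusted p = 0.0344) and lower in KO-ARS than in KO-Ctrl (-1.04, adjusted p = 0.0450), while the list's medians were -0.03 and -0.10. These Rgs5 calls held in 6 of 10 and 0 of 10 fits that left out 1 array. The part of these cells in the Nr4a difference was not tested. Between KO-ARS and KO-Ctrl, where the Nr4a genes fell, the astrocyte markers averaged 7.91 and 7.99, with a median difference of -0.06 and 0 of 11 called. All 7 oligodendrocyte-lineage estimates were below 0 there (median -0.15, 0 called). Their array averages ran from 7.07 to 7.29 in KO-ARS and from 7.37 to 7.42 in KO-Ctrl. Of 7 inhibitory-neuron markers 6 estimates were below 0 and 1 above (median -0.07, 0 called). Of 9 neuron markers 5 were above 0 and 4 below. Without KO-ARS replicate 2 the astrocyte, oligodendrocyte-lineage and inhibitory-neuron medians were 0.11, -0.06 and 0.01. The part of these cells in the Nr4a fall was not tested.

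Under arsenite the 2 genotypes could not be told apart for any Nr4a gene. The KO-ARS minus WT-ARS difference was 0.11 for Nr4a1 (95% confidence interval -0.13 to 0.36, adjusted p = 0.725), 0.13 for Nr4a2 (-0.14 to 0.40, adjusted p = 0.706) and 0.00 for Nr4a3 (-0.45 to 0.45, adjusted p = 0.999), by limma. None of the 3 was called, against 0.343% of all genes, and 2683 genes had an unadjusted p under 0.05. Without KO-ARS replicate 2 the differences were 0.20, 0.15 and -0.02. The intervals leave room for a difference of up to 0.36, 0.40 and 0.45 upward.

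The order of group means had KO-Ctrl highest and WT-Ctrl next for each of the 3, with KO-ARS and WT-ARS lowest. The KO-Ctrl group stood above WT-ARS by 1.45 for Nr4a1 (adjusted p = 0.000135), 1.51 for Nr4a2 (adjusted p = 0.000159) and 2.13 for Nr4a3 (adjusted p = 0.000465) by limma, 3 of 3 called where 0.938% of all genes were called higher. The KO-ARS group stood below WT-Ctrl by -0.23 for Nr4a1 (adjusted p = 0.370), -0.48 for Nr4a2 (adjusted p = 0.0921) and -1.06 for Nr4a3 (adjusted p = 0.0373) by limma, 1 of 3 called where 1.89% of all genes were called lower. The Nr4a3 call was lost without either KO-ARS array, either WT-Ctrl array or WT-ARS replicate 2, with an adjusted p from 0.0561 to 0.211. Without KO-ARS replicate 2 these differences were -0.14, -0.46 and -1.08. Neighbouring groups whose difference did not pass the threshold were KO-ARS and WT-ARS for all 3 genes, KO-ARS and WT-Ctrl for Nr4a1 and Nr4a2, and KO-Ctrl and WT-Ctrl for Nr4a3. By single arrays only KO-ARS and WT-ARS overlapped among these, and the other pairs had no overlap.

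**Figure D3:**
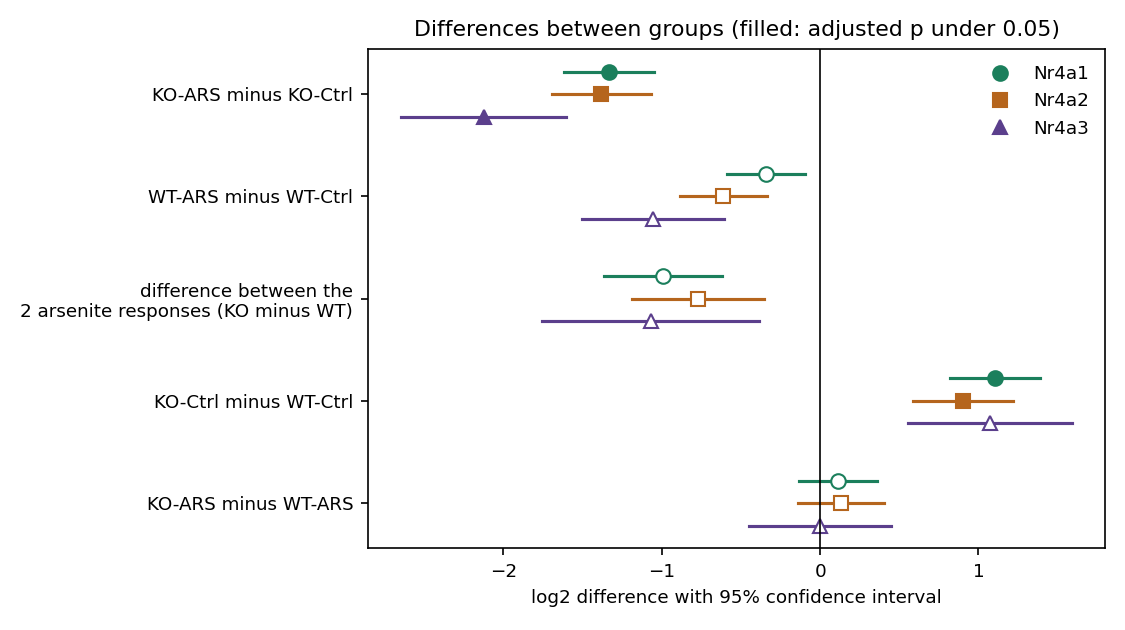
Log2 differences between groups for the 3 Nr4a genes, with 95% confidence intervals from limma; filled markers have an adjusted p under 0.05 and open markers do not. Filled markers are all 3 genes for KO-ARS minus KO-Ctrl, and Nr4a1 and Nr4a2 for KO-Ctrl minus WT-Ctrl.

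The fall of Nr4a3 was larger than that of Nr4a1. The size of arsenite's effect was compared between genes by the per-array difference of their centred log2 values, arsenite minus vehicle averaged over the genotypes, with an exact two-sided permutation test within genotype (90 arrangements, smallest p 0.0111) in 3 pairs that were chosen after values had been seen. Nr4a3 minus Nr4a1 was -0.75 (exact p = 0.0111, the smallest possible, adjusted over the 3 pairs 0.0333), with a difference of -0.71 in wild-type and -0.79 in ATF4-deficient neurons. On the same scale the 6 arsenite arrays ran from -0.48 to -0.05 and the 4 vehicle arrays from 0.09 to 0.75, without overlap. For Nr4a3 against Nr4a2 the difference was -0.59, with arsenite arrays from -0.39 to 0.23 and vehicle arrays from 0.04 to 0.74, which overlapped (exact p = 0.0333, adjusted 0.05, not under the threshold). For Nr4a2 against Nr4a1 the difference was -0.16 (exact p = 0.0778, adjusted 0.0778). Different probe sets need not respond to RNA in equal proportion, which was not tested here.

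The genes nearest in profile were found by the root mean square difference, over the 10 arrays, between each gene's values and a member's after centring both. For Nr4a1 and Nr4a2 this difference was 0.135, the smallest for Nr4a2 and the next to smallest for Nr4a1, where a probe set that the platform assigns to Mir670 was nearer, at 0.132. After these, Nr4a1 lay nearest to Lgr5 (0.149), a receptor for R-spondins, Klhl4 (0.152) and Brinp1 (0.166), and Nr4a2 lay nearest to Brinp1 (0.136), Klhl4 (0.145), Adcyap1 (0.147), which encodes the peptide PACAP, and Mir670 (0.157). Nr4a3 lay nearest to Hdac9 (0.196), a class IIa histone deacetylase, Rgs4 (0.250), a regulator of G protein signalling, Adcyap1 (0.303), Nr4a2 (0.372) and Klhl4 (0.403). Likeness here describes 10 arrays only, 6 of them with arsenite, and the group means of Lgr5 in 3 groups and of Klhl4 and Mir670 in WT-ARS lay under the dim reference. Of the other genes in the promoter table, Rgs4, Fos and Npas4 had 2 CRE cores in the same window and Adcyap1 1, and Brinp1, Hdac9 and Klhl4 had 0.

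**Figure D4:**
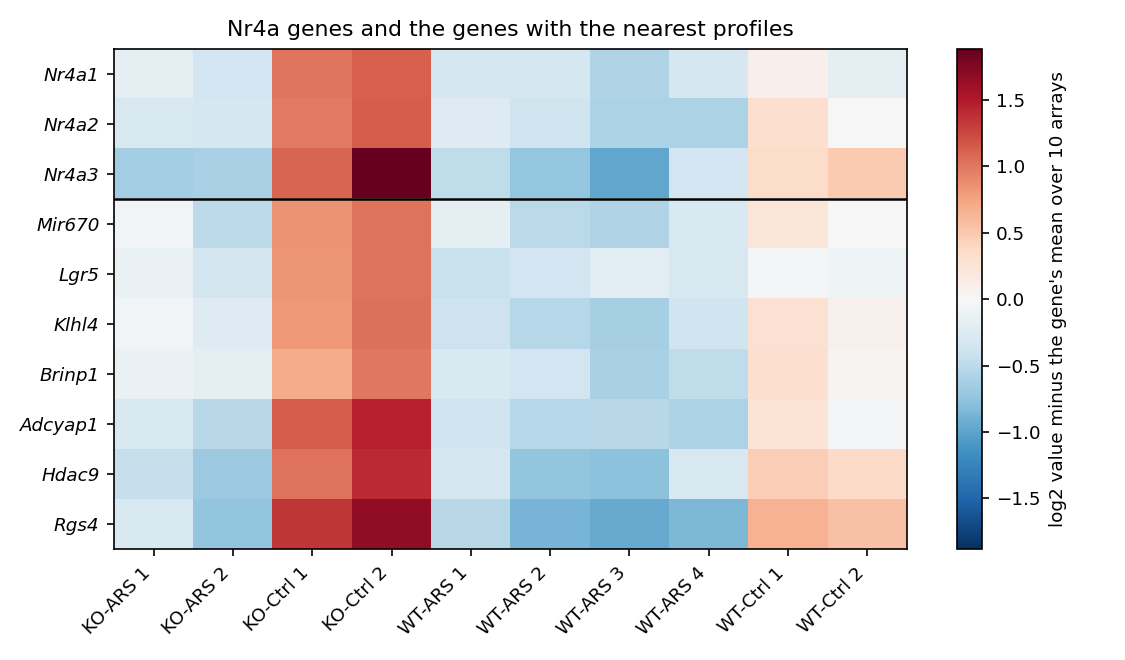
Values of the 3 Nr4a genes (above the line) and the genes nearest in profile on each array, as log2 value minus the gene's own mean over 10 arrays, on a red (above) to blue (below) scale. The 2 KO-Ctrl columns are above each Nr4a gene's mean, from 0.99 to 1.88 log2 units.

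The routes that induce Nr4a genes were followed in a list of 26 kinases and factors of CREB, MEF2 and SRF signalling, of which 21 were measured. None of the 21 was called between KO-ARS and KO-Ctrl, where 1.15% of all genes were, nor between KO-Ctrl and WT-Ctrl, where 0.433% were. Their median differences were -0.06 and -0.27, against -0.01 and 0.00 over all genes. Without KO-ARS replicate 2 the first of these medians was 0.03. Creb1, the CREB gene itself, differed by 0.36 between KO-ARS and KO-Ctrl (adjusted p = 0.214). Crtc1, a CREB coactivator, differed by -0.32 in the same comparison (adjusted p = 0.598) and by -0.52 between KO-Ctrl and WT-Ctrl (adjusted p = 0.369). In wild-type neurons 1 of the 21, Camkk2, a calcium-dependent kinase kinase, fell by 0.59 with arsenite (adjusted p = 0.0338). Of all genes 0.252% were called lower in that comparison. The Camkk2 call held in 4 of the 10 fits that left out 1 array. The same fits gave 0 or 1 called lower under vehicle.

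The list of negative regulators of CREB signalling held 12 genes, all measured. With arsenite in ATF4-deficient neurons 3 of them fell, where 0.523% of all genes were called lower. These were Per1, a clock gene that CREB induces (-1.02, adjusted p = 0.0354), Dusp1, a phosphatase of MAP kinases (-0.79, adjusted p = 0.0207), and Sik3, a salt-inducible kinase that restrains CREB coactivators (-0.64, adjusted p = 0.0380). Dusp1 is also on the primary response list below. Whether CREB was under less restraint was not tested. The median of the 12 was -0.18. With KO-ARS replicate 2 left out, none of the 12 was called (median -0.23), and leaving out single arrays gave 0 to 3. None passed between KO-Ctrl and WT-Ctrl (median 0.25). Sik1 differed by -0.32 with arsenite (adjusted p = 0.301) and by 0.28 with genotype under vehicle (adjusted p = 0.429). Crem, also on the list of inducing routes above, differed by 0.02 and 0.43. Neither gene passed the threshold.

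Primary response genes, induced with Nr4a genes by neuronal activity, numbered 18. With arsenite in ATF4-deficient neurons 4 fell and none rose: Npas4, an activity-regulated transcription factor (-1.77, adjusted p = 0.00198), Fos (-1.62, adjusted p = 0.00686), Fosl2 (-0.96, adjusted p = 0.0145) and Dusp1, already counted above. The median of the 18 was -0.28, and 0.523% of all genes were called lower in this comparison. With KO-ARS replicate 2 left out, the count was 2 of 18 (median -0.18), and leaving out single arrays gave 1 to 5. Under vehicle 2 of the 18 were higher in ATF4-deficient neurons, Fos by 1.34 (adjusted p = 0.0284) and Npas4 by 1.22 (adjusted p = 0.0236), with a median of 0.16, and leaving out single arrays gave 0 to 2. Of all genes 0.180% were called higher under vehicle. In wild-type neurons 1 of the 18 fell with arsenite, Egr3, by 0.80 (adjusted p = 0.0286), where 0.252% of all genes were called lower. Fos was at -0.18 (adjusted p = 0.807) and Npas4 at -0.45 (adjusted p = 0.298) in that comparison. The Egr3 call held in 6 of 10 fits that left out 1 array and was lost without either WT-Ctrl array or WT-ARS replicate 2 or 3. The marker values given above belong to the same arrays.

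Of 14 later activity-induced genes, 6 fell with arsenite in ATF4-deficient neurons, where 0.523% of all genes were called lower. The median of the 14 was -0.66. The 6 included Adcyap1 (-1.71, adjusted p = 0.00136), Pcsk1, which cuts prohormones (-1.16, adjusted p = 0.0167), Rgs2, a regulator of G protein signalling (-0.80, adjusted p = 0.0328), and Inhba, which encodes an activin subunit (-0.76, adjusted p = 0.0294). The other 2 were Crh and Bdnf, the neurotrophin gene (-0.58, adjusted p = 0.0167). Without KO-ARS replicate 2 the count was 2 of 14 (median -0.52), the lowest over the 10 fits that left out 1 array, which gave 2 to 6. Under vehicle 5 of the 14 were higher in KO-Ctrl than in WT-Ctrl (median 0.61), where 0.180% of all genes were called higher. These were Pcsk1 by 1.68 (adjusted p = 0.0110), Scg2, a granin, by 1.42 (adjusted p = 0.0110), and Adcyap1 by 1.19 (adjusted p = 0.0112). The others were Vgf, a secreted neuropeptide precursor, by 1.12 (adjusted p = 0.0247), and Bdnf by 0.60 (adjusted p = 0.0250). Leaving out single arrays gave 0 to 5 there, with medians from 0.58 to 0.70. In wild-type neurons 1 fell with arsenite, Inhba, by 0.67 (adjusted p = 0.0396), where 0.252% of all genes were called lower. That call held in 3 of 10 fits that left out 1 array and was lost without KO-ARS replicate 2, among others. The WT-Ctrl mean of Pcsk1 lay under the dim reference. The Nr4a genes, and these lists, share the KO-Ctrl arrays in both comparisons.

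**Figure D5:**
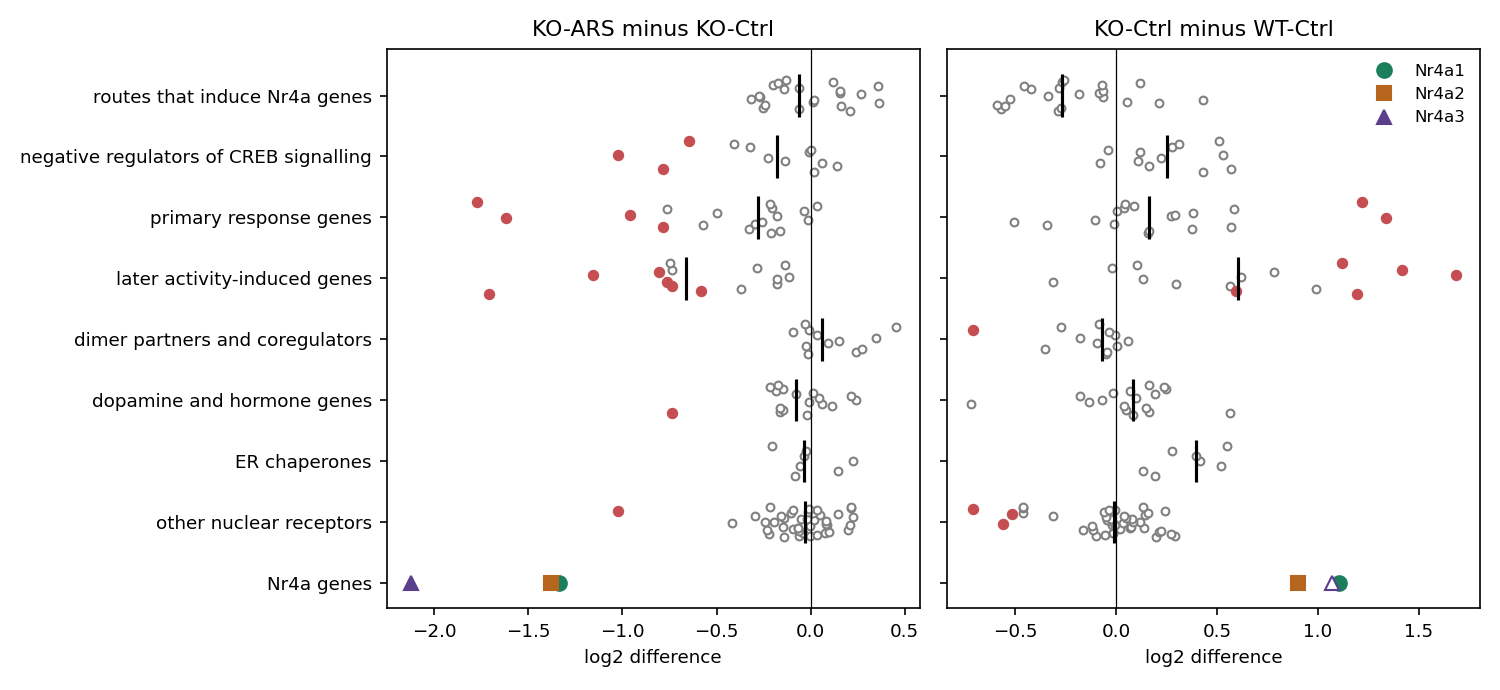
Log2 differences of single genes of each list, for KO-ARS minus KO-Ctrl (left) and KO-Ctrl minus WT-Ctrl (right); open grey points did not pass the adjusted p of 0.05, filled red points did, black bars are list medians, and the lowest row holds the Nr4a genes. The later activity-induced list has 6 filled points below 0 on the left and 5 above 0 on the right.

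Genes that pair with NR4A proteins, or that NR4A proteins are known to regulate elsewhere, were followed in 3 lists. Of 15 dimer partners and coregulators, 12 were measured and none passed between KO-ARS and KO-Ctrl. Rxra differed by 0.04 there, Rxrb by -0.10 and Rcor1, part of a repressor complex that NR4A2 recruits, by 0.35, with the adjusted p between 0.459 and 0.935. Under vehicle 1 was lower in KO-Ctrl, Rxrg, a retinoid X receptor, by -0.71 (adjusted p = 0.0400), where 0.252% of all genes were called lower. That call held in 4 of 10 fits that left out 1 array. Of 18 dopamine-neuron and hormone genes, 17 were measured, and 8 or 9 in each group had means under the dim reference. Crh, the corticotropin-releasing hormone gene and also in the later activity list, fell by 0.73 in ATF4-deficient neurons with arsenite (adjusted p = 0.0449), and Drd2, a dopamine receptor gene, was lower in KO-ARS than in WT-ARS, by -0.70 (adjusted p = 0.0478). Th, the tyrosine hydroxylase gene of dopamine synthesis, differed by -0.15 between KO-ARS and KO-Ctrl (adjusted p = 0.685). Of 8 endoplasmic reticulum chaperones, 7 were measured and 3 were higher in KO-ARS than in WT-ARS. These were Hsp90b1 by 0.69 (adjusted p = 0.00918), Pdia6 by 0.61 (adjusted p = 0.00940) and Hspa5 by 0.53 (adjusted p = 0.0478). In this comparison 0.0721% of all genes were called higher and 0.343% in either direction. Leaving out single arrays gave 0 to 2 chaperones, and 0 without KO-ARS replicate 2, with medians from 0.50 to 0.66. The Crh call held in 1 of 10 such fits and the Drd2 call in 2 of 10. Astrocyte markers were lower in KO-ARS than in WT-ARS, with a median of -0.56 and 10 of 11 estimates below 0. Without KO-ARS replicate 2 that median was -0.28. By limma 1 of the 11 was called lower (Sox9, -0.79, adjusted p = 0.0372), and so was 1 oligodendrocyte-lineage marker, Olig2 (-1.03, adjusted p = 0.0473). The Sox9 and Olig2 calls each held in 2 of 10 fits that left out 1 array. The part of these cells in the chaperone difference was not tested. Under vehicle all 7 chaperone estimates were also above 0 in KO-Ctrl against WT-Ctrl, with a median of 0.40 and 0 called. The array averages of the 7 ran from 9.63 to 9.65 in KO-Ctrl and from 9.27 to 9.30 in WT-Ctrl. The Nr4a genes did not differ between KO-ARS and WT-ARS beyond the intervals given above.

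The remaining nuclear receptors served as a comparison for the family. Of 46 listed, 42 were measured. Of these, 13 in WT-Ctrl and 14 in each other group had means under the dim reference, unlike the Nr4a genes. Between KO-ARS and KO-Ctrl 1 of the 42 fell, Rorb, an orphan receptor of cortical layer identity, by 1.03 (adjusted p = 0.00703). Of all genes 0.523% were called lower there. The median of the 42 was -0.03, against -0.01 over all genes. That call was absent without KO-ARS replicate 2, and the median was 0.02. In wild-type neurons Rorb was also called lower, by -0.79 (adjusted p = 0.0254), the only one of the 42, where 0.252% of all genes were. That call held in 6 of 10 fits that left out 1 array and was lost without either WT-Ctrl array or WT-ARS replicate 2 or 3. Under vehicle 3 of the 42 were lower in KO-Ctrl than in WT-Ctrl and none was higher, where 0.252% of all genes were called lower. The 3 were Rxrg, Nr2e1 by -0.56 (adjusted p = 0.0387) and Rara, a retinoic acid receptor, by -0.51 (adjusted p = 0.0370). Leaving out single arrays gave 0 to 3 in this comparison.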

How the data were processed

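The 10 arrays were Affymetrix mouse arrays on total RNA. The deposited values are log2 expression, made by the authors with the Robust Multiarray Average (RMA) method in Partek Genomics Suite 6.6, per the labels and the submitters' processing notes. RMA gives all arrays the same distribution of probe signals, so a shift common to most genes would not show. Scanner files were not used here. Of 41345 probe sets, 23521 carried 1 gene symbol in the platform annotation, 1814 several and 16010 had no entry; 23328 of the single-symbol sets were matched by Entrez ID to RefSeq GRCm38.p6 and 193 kept their symbol. Each of 22180 genes was represented by the single-symbol probe set with the highest mean. limma 3.58.1 in R 4.3.3 (lmFit with a mean per group over all 10 arrays, eBayes, Benjamini-Hochberg over all genes, threshold 0.05) gave differences, standard errors, 95% intervals and p-values; the code was tested on simulated data. The number of arrays limits the precision. Samples were grouped by title. Same-numbered replicates were treated as unpaired. Their correlations of deviations ran from -0.06 to 0.40, which did not settle whether they were paired. Named genes were the members, Atf4, the 5 nearest profiles per member, up to 4 called genes per list and comparison with the largest differences, and 12 fixed genes. Members, lists and tests were chosen with earlier results of these data known. Alternatives were dim genes left out, every probe set, the mean of a gene's probe sets, array weights, another prior, only the compared groups, a replicate block, median scaling and leaving out each array. Sequences are RefSeq's; all 3 members were matched by symbol.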

Additional observations from a re-analysis of the deposited data

Results flagged for a closer look

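Nr4a1 in WT-ARS had 1 array apart from the others: replicate 3 was at 7.36, while the other 3 arrays lay between 7.61 and 7.62, so that the gap took 0.946 of the group's range. Without that array the Nr4a1 difference between WT-ARS and WT-Ctrl was -0.28, against -0.34 with it, and neither passed the threshold (adjusted p = 0.445 and 0.257 by limma). Dixon's 95% critical value for 4 arrays is smaller than that share of the range, and chance exceeds that value in about 1 in 20 groups; 19 sets of values were examined.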

How the results depend on the processing

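Over 21 results and 18 alternative settings, 341 of 375 values kept their direction and their side of the threshold. Many of these settings could not move an estimate, so the count overstates how much was tested. Each member has 1 probe set, and leaving out an array outside a comparison changes only its standard error and p-value. In wild-type neurons Nr4a2 passed for arsenite with dim genes left out (-0.61, adjusted p = 0.0408) and with array weights (-0.60, 0.0471), and Nr4a3 with dim genes left out (-1.06, 0.0349), array weights (-1.06, 0.0390) and a trended, robust prior (-1.06, 0.0466); leaving out single arrays gave -1.15 to -0.94 for Nr4a3, which passed without either KO-Ctrl array (0.0378). With only the compared groups, KO-ARS minus KO-Ctrl was -1.34, -1.38 and -2.13 with no call (0.210, 0.210 and 0.217), and KO-Ctrl minus WT-Ctrl 1.10 for Nr4a1 and 0.90 for Nr4a2 with no call (0.199 and 0.219). With every probe set tested, the last 2 also missed the threshold (1.10 and 0.90, 0.0975 and 0.146). Leaving out single arrays gave 0.97 to 1.24 for Nr4a1, 0.75 to 1.06 for Nr4a2 and 0.68 to 1.46 for Nr4a3 in that comparison. For KO-ARS minus WT-Ctrl, Nr4a3 stayed at -1.06 but missed the threshold with every probe set (0.101), array weights (0.0617) and only the compared groups (0.119), and ran from -1.12 to -0.99 without single arrays. The sign of KO-ARS minus WT-ARS, never past the threshold, turned for Nr4a3, which ran from -0.112 to 0.0910 without single arrays. The cause of these changes was not tested, except that only the compared groups means fewer arrays and every probe set means more tests.

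Whether the replicate numbers pair the arrays was not settled. The correlation of deviations was 0.40 between same-numbered KO-Ctrl and KO-ARS arrays, and -0.06 between same-numbered WT-Ctrl and KO-Ctrl arrays. The main fit treated all arrays as unpaired. A replicate block was fitted on replicates 1 and 2 of each group only, so WT-ARS replicates 3 and 4 were left out. The effect of the block and that of the arrays left out cannot be told apart here. In that fit KO-ARS minus WT-ARS was -0.0101 for Nr4a2 and -0.0331 for Nr4a3. The 3 calls of KO-ARS minus KO-Ctrl held (adjusted p = 0.00686, 0.00686 and 0.00886 by limma). That fit called 17 genes instead of 107 for WT-ARS minus WT-Ctrl and 165 instead of 96 for KO-Ctrl minus WT-Ctrl. For KO-ARS minus WT-ARS it called 4 instead of 76, and for KO-ARS minus WT-Ctrl 1227 instead of 741. Counts of called genes over all alternatives without a block ran from 0 to 186 for WT-ARS minus WT-Ctrl, from 0 to 228 for KO-Ctrl minus WT-Ctrl, and, where they moved by over 1.5 times, from 0 to 160 for KO-ARS minus KO-Ctrl (256), from 1 to 43 for KO-ARS minus WT-ARS (76), from 0 to 1127 for KO-ARS minus WT-Ctrl (741) and from 59 to 279 for KO-Ctrl minus WT-ARS (454). With 2 arrays in 3 of the 4 groups, the spread rests on 6 residual degrees of freedom. The fits of the gene and marker lists without single arrays were added after seeing the data.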
